A study of Homo sapiens with 15 samples.

Results

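The 9 genes described here make, convert or consume NAD or break down tryptophan along the kynurenine route: NAMPT, NAPRT, NMNAT1, QPRT, KYNU, NADK, NNMT, SIRT1 and PARP1. They were chosen by name from 43388 gene symbols counted per library, and the choice was made with the ATRA response in view: NAMPT and KYNU were selected on being lower in the ATRA libraries than in the vehicle libraries. Values of ATRA against vehicle are therefore given as a description of these genes, with no test. All 9 genes passed the filter on low counts that left 15339 genes tested.

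NAD carries electrons in metabolism and is also used up as a substrate. Cells rebuild it by salvage of nicotinamide, in which NAMPT makes nicotinamide mononucleotide and the NMNAT enzymes turn that into NAD. NAPRT opens the parallel route from nicotinic acid, and QPRT joins the de novo route from tryptophan, the kynurenine route in which KYNU cleaves kynurenine and 3-hydroxykynurenine. NADK phosphorylates NAD to NADP, NNMT methylates nicotinamide and so takes it out of salvage, and SIRT1 (a deacetylase) and PARP1 (a DNA-damage-activated poly-ADP-ribose polymerase) split NAD when they act.

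RNA-seq was done on WT A549 cells, a human lung adenocarcinoma line widely used as a model of the alveolar epithelium. Cells were kept for 72 h in hyperoxia (95% O2) or normoxia (21% O2). At each oxygen exposure, 2 libraries came from cells with no vehicle, 2 from cells given the ethanol vehicle for 24 h and 3 from cells given 1e-05 mM all-trans retinoic acid (ATRA) for 24 h, all before the exposure. These 14 libraries in 6 groups were compared, of 15 in all. The labels do not say whether libraries of 1 group came from separate cultures, so p-values measure the spread between these libraries, which may be technical.

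Gene counts ran from 2642377 to 5605072 per library. 1 library, hyperoxia without vehicle replicate 1, stood apart: 12657 genes had a count there, against 16465 to 20108 in the other 13 libraries, and it lay at -198.9 on the first principal component (41.2% of the variance) while the others lay between -9.27 and 35.6. Where leaving it out changed a call for any of the 9 genes in an oxygen comparison, both values are given. Sizes could move without a change of call, and such a size is given for some genes only. The labelled exposures left a mark: CDKN1A, a p53 target, was at 963 to 1140 CPM (counts scaled to library size) in hyperoxia and 64.9 to 108 CPM in normoxia, and CYP26B1, a retinoic acid target, was at 373 to 858 CPM with ATRA and 35.3 to 98.5 CPM without. Of the epithelial markers, KRT8, KRT18, KRT19 and CDH1 had counts in all 14 libraries, whereas EPCAM had at most 24 counts and was at 0 in 3. The alveolar type II marker SFTPA1, the endothelial marker VWF, the fibroblast marker DCN and the T cell marker CD3E were at 0 in all 14. Other genes of these lists had some counts, at most 22 for NAPSA, 20 for CDH5, 38 for COL1A1 and 17 for COL3A1. The fibroblast list summed to 0 to 4.97 CPM in hyperoxia and 1.56 to 12.9 CPM in normoxia. Summed over 5 genes, the epithelial markers were at 1685 to 4203 CPM in hyperoxia and 5743 to 9562 CPM in normoxia, and the leukocyte list, nearly all of it CD68 and ITGAM, was at 66.8 to 135 CPM and 20.04 to 36.0 CPM. These sums moved with oxygen as several genes below did. In hyperoxia they also differed between ATRA and vehicle, with 2805 to 4203 CPM against 1685 to 1784 CPM for the epithelial markers and 89.1 to 96.4 CPM against 66.8 to 82.8 CPM for the leukocyte list. Their part in the results below was not tested. In a bulk sample, fewer cells of a type and less RNA per cell cannot be told apart.

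The kit marks the strand, and the strand setting of the counting is not given in the sources used here. In each of the 14 libraries, TALAM1, the transcript antisense to the abundant RNA MALAT1, held 1.87 to 2.01 times the counts of MALAT1 itself, and 48.6% to 55.3% of reads fell on no gene. This pair was looked up after the counts were seen. A gene's row may thus hold reads from a neighbour on the opposite strand, and their part in the results below was not tested. Of the 9 genes, NMNAT1 (+ strand) shares 469 bases with LZIC (- strand), whose row held 453% of NMNAT1's counts, so NMNAT1 values are uncertain. NADK overlaps a locus with 6.27% of its counts. No overlapping gene with counts was found for the other 7.

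Per kilobase of the GENCODE canonical transcript, PARP1 (41.6 CPM per kb, mean of 14 libraries) and NAMPT (34.8) stood highest, followed by NNMT (20.4) and KYNU (17.1). NADK (8.52), SIRT1 (8.22), NAPRT (5.23), NMNAT1 (1.86) and QPRT (0.555) were lower. The KYNU value rests on a canonical transcript of 15151 bases, and a shorter one would raise it.

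NAMPT and KYNU, the salvage and kynurenine enzymes that the results turn on, sit in unlike sequence, and for that reason the 250 bases before each RefSeq start are shown, 5′ to 3′ on the gene's strand in GRCh38.p14. The NAMPT window is chr7:106284984-106285233 (- strand) and lies inside the span of the RefSeq gene record (chr7:106248298-106285888). The KYNU window is chr2:142877414-142877663 (+ strand), directly before the gene record (chr2:142877664-143055833). Capitals mark the GC box, GGGCGG on either strand, in NAMPT and the letters TATAAA on either strand in KYNU.
NAMPT: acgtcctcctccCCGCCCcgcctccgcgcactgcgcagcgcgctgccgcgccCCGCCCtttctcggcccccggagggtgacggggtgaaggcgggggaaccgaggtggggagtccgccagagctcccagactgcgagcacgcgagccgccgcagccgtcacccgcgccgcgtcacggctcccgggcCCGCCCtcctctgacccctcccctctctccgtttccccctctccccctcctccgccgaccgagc
KYNU: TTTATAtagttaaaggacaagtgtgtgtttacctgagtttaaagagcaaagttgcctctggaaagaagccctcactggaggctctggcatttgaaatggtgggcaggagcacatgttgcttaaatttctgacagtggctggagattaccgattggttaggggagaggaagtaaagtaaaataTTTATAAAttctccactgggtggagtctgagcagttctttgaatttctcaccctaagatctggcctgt
The NAMPT window was 77.2% G or C and held 3 GC boxes and no TATAAA. A GC box, in any number, is found in 42.6% of 35116 promoter windows of that length. The KYNU window was 42.4% G or C and held no GC box but 3 matches to TATAAA, of which those starting 68 and 66 bases before the start overlap each other. Of all windows, 10.7% hold TATAAA. Neither window held AGGTCA, the half-site bound by retinoid receptors (12.1% of windows), TGANTCA, the AP-1 site (6.57%), or a match to the NF-kB site (5.21%). A match is a run of letters and no more.

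Hyperoxia against normoxia was compared in 3 settings, without vehicle, with vehicle and with ATRA, and as the mean of the 3. NAMPT and KYNU were selected on the vehicle and ATRA libraries. Their calls with vehicle, with ATRA and in the mean use the same libraries and are not independent of that choice. Only the comparison without vehicle sets none of those libraries against each other. In the mean, 4 of the 9 genes were DE (edgeR quasi-likelihood test, Benjamini-Hochberg adjusted p under 0.05), against 30.9% of all genes tested. NAMPT and KYNU were higher in hyperoxia, 1.47-fold and 1.75-fold, while NNMT was 3.62-fold and PARP1 1.48-fold lower. The other 5 did not pass the test.

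NAMPT is the rate-limiting enzyme of nicotinamide salvage. In normoxia its level was 187 and 168 CPM without vehicle, 143 and 143 CPM with vehicle, and 77.2, 75.2 and 67.7 CPM with ATRA. In hyperoxia it was 223 and 227 CPM without vehicle, 249 and 242 CPM with vehicle, and 104, 123 and 94.4 CPM with ATRA. Within each treatment every hyperoxia library was above every normoxia library. The share of all genes that separate so within each treatment was not counted, here or for KYNU below. Across treatments the ATRA libraries in hyperoxia lay below the normoxia libraries without ATRA. The log2 fold change of hyperoxia over normoxia was 0.56 ± 0.08 (SE, edgeR adjusted p = 4.16e-05) in the mean of treatments. It was 0.78 ± 0.15 with vehicle (edgeR adjusted p = 0.00183) and 0.54 ± 0.12 with ATRA (edgeR adjusted p = 0.00712). Without vehicle it was 0.34 ± 0.14 and did not pass (edgeR adjusted p = 0.122).

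KYNU, the kynureninase, had the highest mean CPM of the 9 genes over the 14 libraries. Its normoxia level was 299 and 232 CPM without vehicle, 247 and 214 CPM with vehicle, and 101, 130 and 106 CPM with ATRA. In hyperoxia the values were 341 and 400 CPM, 430 and 485 CPM, and 218, 190 and 237 CPM, in the same order of treatments. Again the oxygen groups did not overlap within a treatment, and overlapped across treatments. The log2 fold change was 0.80 ± 0.09 in the mean (edgeR adjusted p = 2.51e-06), 0.99 ± 0.16 with vehicle (edgeR adjusted p = 0.000635) and 0.94 ± 0.14 with ATRA (edgeR adjusted p = 0.000178). Without vehicle it was 0.48 ± 0.16 (edgeR adjusted p = 0.0565). Leaving out the library that stood apart gave 0.59 ± 0.18 there (edgeR adjusted p = 0.0335).

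**Figure D1:**
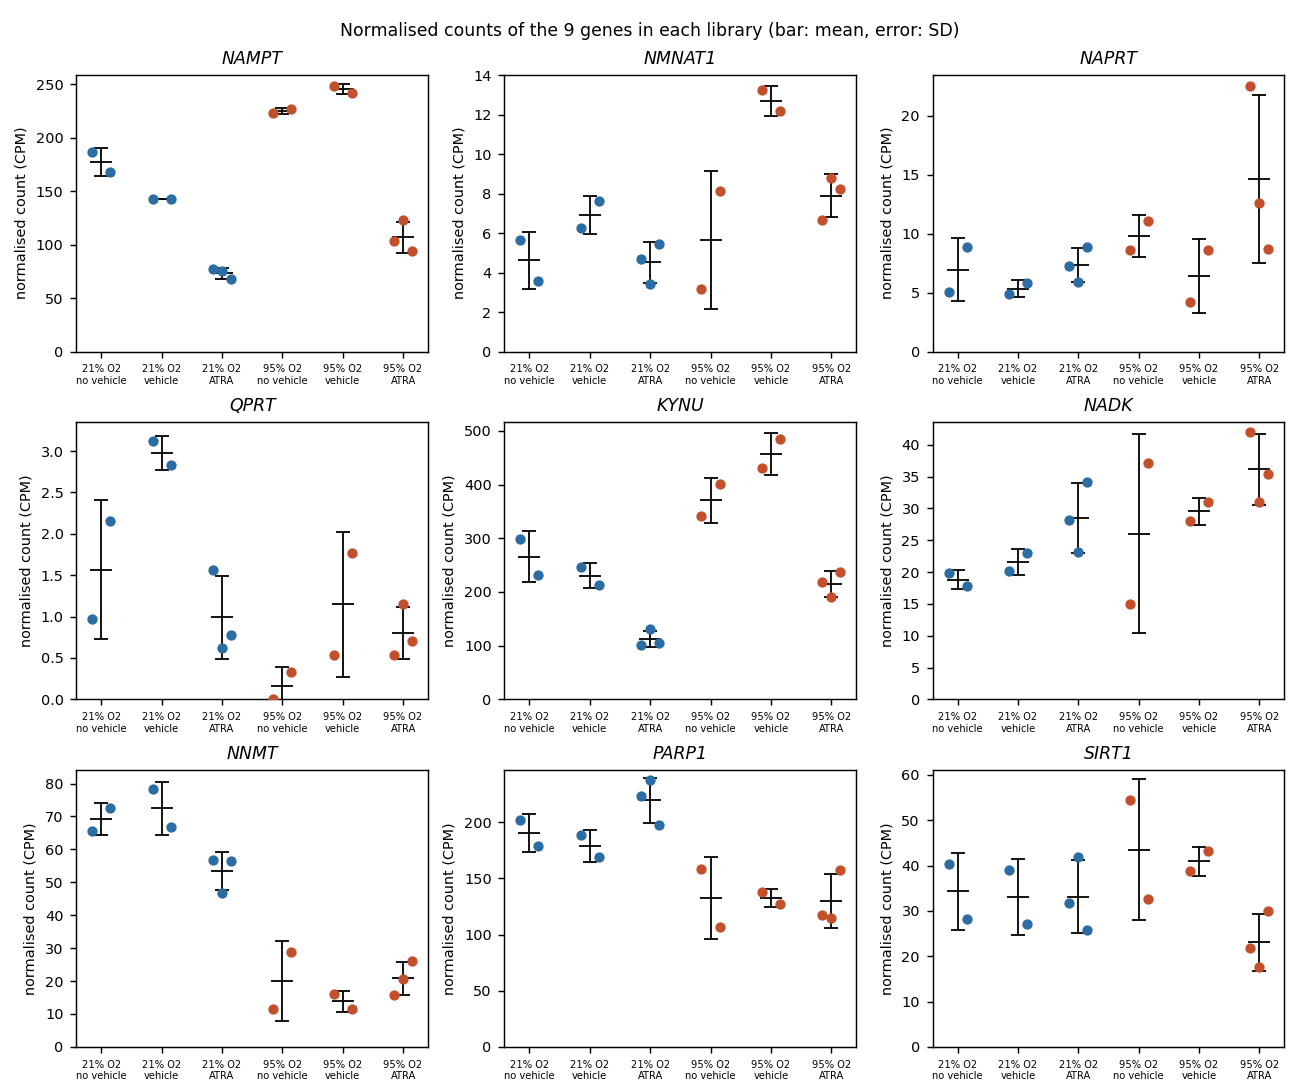
Normalised count (CPM) of each of the 9 genes by group, 21% O2 in blue and 95% O2 in red. Points are libraries, horizontal bars group means and error bars SD (cut at 0). NAMPT and KYNU points are higher at 95% O2 than at 21% O2 within each treatment and low in both ATRA groups, and all 7 NNMT points at 95% O2 lie below the 7 at 21% O2. The share of all genes that separate by oxygen in these ways was not counted.

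NNMT, nicotinamide N-methyltransferase, had the largest change of the 9 genes in the mean. In normoxia it stood at 65.7 and 72.7 CPM without vehicle, 78.2 and 66.7 CPM with vehicle, and 56.9, 46.8 and 56.5 CPM with ATRA. In hyperoxia it stood at 11.4 and 28.7 CPM, 16.2 and 11.7 CPM, and 15.9, 20.7 and 26.0 CPM. All 7 hyperoxia libraries (highest 28.7 CPM) lay below all 7 normoxia libraries (lowest 46.8 CPM). The share of all genes with no overlap between these 7 and 7 libraries was not counted, here or for PARP1 below. The fall was 1.86 ± 0.19 on the log2 scale in the mean (log2 fold change -1.86, edgeR adjusted p = 1.01e-06). It was -1.82 ± 0.35 without vehicle (edgeR adjusted p = 0.0018), -2.39 ± 0.36 with vehicle (edgeR adjusted p = 0.000257) and -1.36 ± 0.28 with ATRA (edgeR adjusted p = 0.00354). Fitted on the 4 libraries without vehicle alone, the change was -1.80 and not DE (edgeR adjusted p = 0.198). Leaving out the library that stood apart gave smaller falls, -1.68 ± 0.15 in the mean and -1.27 ± 0.31 without vehicle.

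PARP1 was at 202 and 178 CPM without vehicle, 189 and 169 CPM with vehicle, and 223, 238 and 198 CPM with ATRA in normoxia. In hyperoxia it was at 158 and 107 CPM, 138 and 127 CPM, and 118, 114 and 157 CPM. The 7 hyperoxia libraries again all lay below the 7 normoxia libraries, with 158 CPM as the highest of the former and 169 CPM as the lowest of the latter. The log2 fold change was -0.57 ± 0.10 in the mean (edgeR adjusted p = 0.000443) and -0.75 ± 0.16 with ATRA (edgeR adjusted p = 0.00345). It did not pass without vehicle, -0.52 ± 0.19 (edgeR adjusted p = 0.0778), or with vehicle, -0.43 ± 0.19 (edgeR adjusted p = 0.206). Without the library that stood apart, the change without vehicle was -0.84 ± 0.21 (edgeR adjusted p = 0.0063).

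NADK, the kinase that makes NADP, was at 17.8 to 34.1 CPM in normoxia (median 23.1) and 14.98 to 42.0 CPM in hyperoxia (median 31.1). The lowest hyperoxia value, 14.98 CPM, was the library that stood apart. The log2 fold change in the mean was 0.42 ± 0.20 (edgeR adjusted p = 0.124) with all 14 libraries and 0.59 ± 0.16 (edgeR adjusted p = 0.00387) without that library. NMNAT1 ranged over 3.43 to 7.63 CPM in normoxia and 3.20 to 13.3 CPM in hyperoxia, the lowest being the same library. Its change was 0.64 ± 0.36 (edgeR adjusted p = 0.198), and 0.81 ± 0.30 (edgeR adjusted p = 0.0337) without it. Without that library the DE count in the mean was 6 of the 9 genes, against 34.1% of all 16503 genes then tested.

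NAPRT ranged over 4.87 to 8.88 CPM in normoxia and 4.24 to 22.5 CPM in hyperoxia, and the groups overlapped. The highest value, 22.5 CPM, was hyperoxia with ATRA replicate 1. The log2 fold change in the mean was 0.59 ± 0.34 (edgeR adjusted p = 0.211). SIRT1 spanned 25.8 to 41.8 CPM in normoxia and 17.6 to 54.5 CPM in hyperoxia. Its mean change was 0.05 ± 0.18 (edgeR adjusted p = 0.855; 95% interval -0.34 to 0.44). By treatment the values were 0.35 ± 0.34 without vehicle, 0.32 ± 0.34 with vehicle and -0.51 ± 0.28 with ATRA, none of which passed. The highest SIRT1 value, 54.5 CPM, was the library that stood apart. Without that library the change without vehicle was -0.085 ± 0.35.

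QPRT, quinolinate phosphoribosyltransferase, was close to the limit of detection, with 0 to 16 counts per library. Normoxia libraries held 5 and 9 counts without vehicle, 9 and 16 with vehicle, and 6, 2 and 3 with ATRA. Hyperoxia libraries held 0 and 1, 2 and 10, and 3, 3 and 3. Without vehicle, 14 counts in normoxia against 1 in hyperoxia gave a depth-corrected ratio of 12.2 (95% counting interval 1.85 to 514). With vehicle, 25 against 12 gave 2.31 (1.12 to 5.04). Such intervals cover counting error only, and 3 counts correspond to 0.535 to 1.14 CPM in these libraries. Across libraries the mean change of -1.65 ± 0.79 did not pass (edgeR adjusted p = 0.129). The library that stood apart held 0 counts, which entered the ratio of 12.2. Leaving it out gave a mean change of -1.28 ± 0.89.

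**Figure D2:**
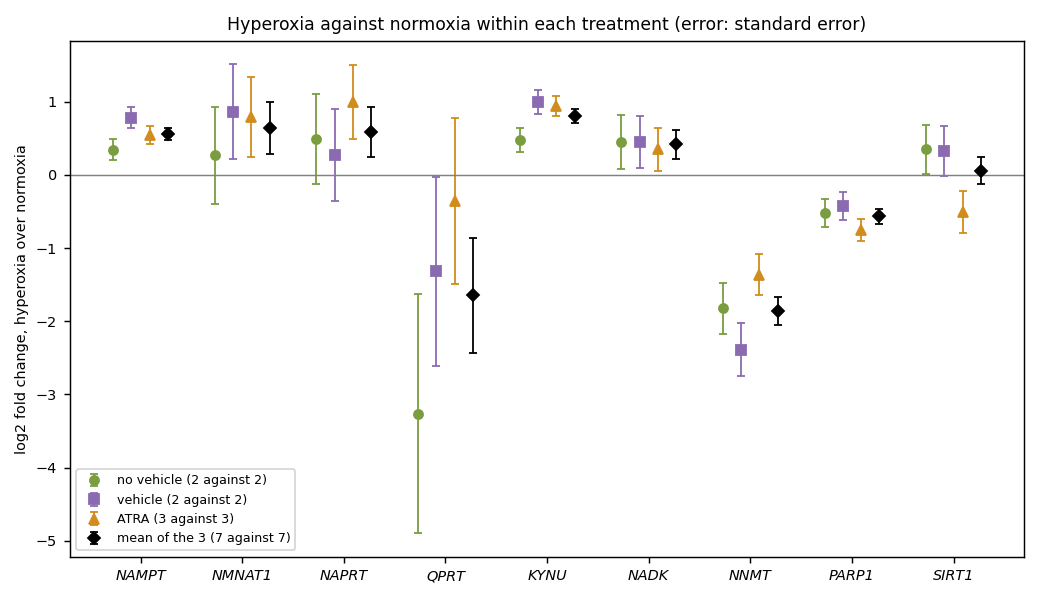
Log2 fold change of hyperoxia over normoxia (edgeR) for each gene, within each treatment and as the mean of 3 treatments, with standard errors. NAMPT and KYNU lie above 0 and NNMT and PARP1 below 0 in every treatment, the QPRT errors are the widest, and the SIRT1 estimate with ATRA (-0.51) lies on the other side of 0 from those without vehicle (0.35) and with vehicle (0.32). All libraries are included. Without the library that stood apart, the SIRT1 estimate without vehicle was -0.085 (not drawn).

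Taken treatment by treatment, 1 of the 9 genes (NNMT) was DE without vehicle against 15.2% of all genes tested, 3 (NAMPT, KYNU and NNMT) with vehicle against 9.49%, and 4 (NAMPT, KYNU, NNMT and PARP1) with ATRA against 13.1%. Without the library that stood apart, 4 were DE without vehicle, against 11.0% of all genes: NNMT, KYNU, PARP1 and NADK (0.97 ± 0.32, edgeR adjusted p = 0.0485). Whether oxygen acted differently with and without vehicle was tested directly, as the difference of the log2 fold changes. It was 0.44 ± 0.20 for NAMPT (edgeR adjusted p = 0.877; 95% interval 0.01 to 0.87) and 0.51 ± 0.23 for KYNU (edgeR adjusted p = 0.877; 95% interval 0.03 to 1.00). By edgeR 0 of the 9 genes passed (2, NAMPT and KYNU, at an unadjusted p under 0.05, and 0 by DESeq2), and 0.00652% of all genes tested did, with 4.82% at an unadjusted p under 0.05. Leaving out hyperoxia without vehicle replicate 2 gave a call for KYNU (0.66, edgeR adjusted p = 0.0447), with the library that stood apart then alone in its group and 22.5% of all genes called.

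The ethanol vehicle itself was compared with no vehicle, as the mean of both oxygen exposures. By edgeR, 0 of the 9 genes were DE, and 0.00652% of all genes tested (3.34% at an unadjusted p under 0.05). At an unadjusted p under 0.05, and by DESeq2, 0 of the 9 passed too. NAMPT differed by -0.09 ± 0.10 on the log2 scale (95% interval -0.31 to 0.12) and KYNU by 0.05 ± 0.11 (95% interval -0.19 to 0.29). For the genes with few counts the intervals were wide, from -1.40 to 0.45 for NAPRT and -0.29 to 4.08 for QPRT. Without hyperoxia without vehicle replicate 2, NMNAT1 (1.30, edgeR adjusted p = 0.0292) and NADK (0.61, edgeR adjusted p = 0.049) passed, in a setting that called 21.4% of all genes.

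ATRA against vehicle is the contrast on which NAMPT and KYNU were selected, and its values are a description. The vehicle and ATRA libraries are those already used in the oxygen comparisons, so the values are not independent of them. In hyperoxia NAMPT was at 249 and 242 CPM with vehicle and at 104, 123 and 94.4 CPM with ATRA, a log2 fold change of -1.20 ± 0.13. In normoxia it was at 143 and 143 CPM with vehicle and 77.2, 75.2 and 67.7 CPM with ATRA, a log2 fold change of -0.96 ± 0.13. NAMPT in the ATRA libraries was thus 0.436 of the vehicle mean in hyperoxia and 0.514 of it in normoxia. KYNU was at 0.470 of the vehicle mean in hyperoxia (log2 fold change -1.09 ± 0.15) and 0.488 in normoxia (-1.04 ± 0.15). For both genes the ATRA libraries lay below the vehicle libraries and below the libraries without vehicle at the same oxygen exposure, with no overlap.

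The other 7 genes varied. NAPRT was higher in every ATRA library than in the vehicle libraries, 2.27 times the vehicle mean in hyperoxia and 1.37 times in normoxia, but overlapped the libraries without vehicle. In hyperoxia it was at 22.5, 12.6 and 8.74 CPM with ATRA against 4.24 and 8.65 CPM with vehicle. The share of all genes with no overlap between 3 ATRA and 2 vehicle libraries was not counted, here or for the genes below and above. NADK with ATRA was 1.22 times the vehicle mean in hyperoxia, with overlap, and 1.32 times in normoxia, with none. SIRT1 was at 21.8, 17.6 and 30.0 CPM with ATRA in hyperoxia against 38.7 and 43.3 CPM with vehicle, 0.565 of the vehicle mean. In normoxia its ATRA mean was 1.00 times the vehicle mean. NNMT with ATRA was 1.498 times the vehicle mean in hyperoxia, where groups overlapped, and 0.737 of it in normoxia, where they did not. PARP1 with ATRA was 0.979 of the vehicle mean in hyperoxia and 1.23 times in normoxia. NMNAT1 was 0.622 and 0.653 of the vehicle mean and lay below both vehicle libraries at each exposure, but overlapped the libraries without vehicle. QPRT, on 2 to 16 counts a library, was at 0.696 and 0.332 of it.

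**Figure D3:**
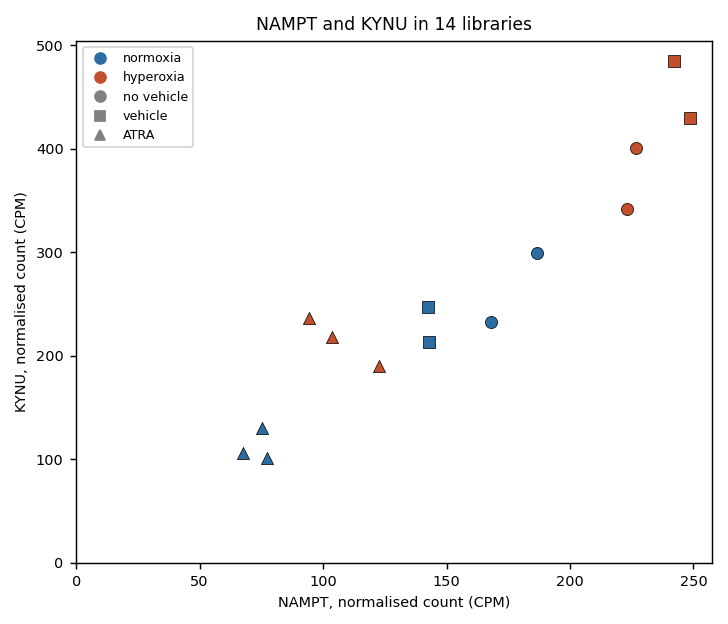
KYNU against NAMPT, both as normalised count (CPM), in the 14 libraries. Colour gives the oxygen exposure and shape the treatment. The 3 ATRA libraries in normoxia lie lowest in both genes and the 2 vehicle libraries in hyperoxia highest.

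KYNU CPM was 1.31 to 2.51 times NAMPT CPM in the 14 libraries. Over these libraries KYNU was the gene 4th most like NAMPT among all genes tested (Pearson's r of log2 CPM = 0.937, across 14 libraries that share the oxygen and ATRA groups). The genes most like NAMPT were ASPH (0.963), RSPO3 (0.947), RAB3B (0.943), KYNU and RAB10 (0.934). Those most like KYNU were ASPH (0.970), RAB3B (0.955), UBASH3B (0.952), SLC7A11 (0.950) and RSPO3 (0.938), so that ASPH, RAB3B and RSPO3 stood on both lists. These correlations describe the libraries and carry no test, since a group difference alone raises them. NAMPT and KYNU were both selected on being lower with ATRA, so a high likeness between them was partly set by that choice.

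The rest of the NAD and kynurenine machinery was followed in a list of 63 other genes, of which 51 passed the filter on low counts. In the oxygen comparison over 3 treatments 14 of the 51 were DE, 9 higher and 5 lower in hyperoxia, or 27.5% against the 30.9% of all genes. The median log2 fold change was 0.26 over the 51 genes and -0.03 over all genes tested. Along the kynurenine route, 3 of 5 tested genes were DE, all lower, or 60% against 30.9% of all genes. The other genes of these 5, AFMID (-0.44 ± 0.24) and KYAT3 (0.40 ± 0.36), did not pass (edgeR adjusted p = 0.196 and 0.451). KMO, the hydroxylase just before KYNU, was at 111 to 135 CPM in normoxia without vehicle, 119 to 130 CPM with vehicle and 91.4 to 125 CPM with ATRA. In hyperoxia it was at 42.1 to 44.3 CPM, 34.8 to 54.1 CPM and 40.1 to 57.0 CPM, a log2 fold change of -1.35 ± 0.13 (edgeR adjusted p = 4.24e-07). The kynurenine aminotransferases KYAT1 (-1.57 ± 0.44, edgeR adjusted p = 0.0106) and AADAT (-1.33 ± 0.44, edgeR adjusted p = 0.0295) were lower too. Without the library that stood apart KYAT1 was at -1.23 and AADAT at -0.96, both still DE (edgeR adjusted p = 0.00319 and 0.00353). The AADAT call was lost in 9 of the 14 fits that leave out 1 library, and its estimate was -3.41 without hyperoxia without vehicle replicate 2. KYAT1 shares bases with LRRC8A on the opposite strand, which held 905% of its counts, and KMO with OPN3 on the opposite strand, which held 78.5%. The enzymes that open the route, IDO1 and IDO2, and HAAO, just after KYNU, had 3 counts or fewer in every library, as had the transporters SLC5A8 and SLC25A52, and were not detectable at this depth. TDO2, which also opens the route, did not pass the filter, with at most 20 counts (3.61 CPM) in a library.

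Among salvage genes, 1 of 6 tested was DE, or 16.7% against 30.9% of all genes. NADSYN1, the NAD synthetase of the nicotinic acid route, was 0.69 ± 0.13 higher on the log2 scale (edgeR adjusted p = 0.000401). Of the 7 genes tested for NADP, NAD transport and repair, 2 were DE, or 28.6% against 30.9% of all genes. The mitochondrial kinase NADK2 was lower (-0.84 ± 0.22, edgeR adjusted p = 0.00788) while NADK did not pass. NADK2 shares bases with SKP2 on the opposite strand, which held 104% of its counts. AOX1, an aldehyde oxidase that also oxidises nicotinamide derivatives, had 0 counts in the library that stood apart. Its log2 fold change was 1.79 ± 0.61 (edgeR adjusted p = 0.0441) with that library and 2.13 without it (edgeR adjusted p = 2.14e-09). The call was lost in the other 13 fits that leave out 1 library, and the estimate was -1.22, the other direction, without hyperoxia without vehicle replicate 2, which leaves the library that stood apart alone in its group.

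The NAD consumers also differed within families. Of 6 other sirtuins tested, SIRT2 alone was DE, or 16.7% against 30.9% of all genes. SIRT2 was at 17.8 to 30.9 CPM in normoxia and 37.6 to 67.2 CPM in hyperoxia (1.14 ± 0.14, edgeR adjusted p = 9.42e-06). In the PARP family 4 of 16 tested genes were DE, all higher, which is 25% against 30.9% of all genes. TIPARP, a mono-ADP-ribosyltransferase induced by the aryl hydrocarbon receptor, was at 24.2 to 44.3 CPM in normoxia and 113 to 189 CPM in hyperoxia (2.38 ± 0.13, edgeR adjusted p = 3.22e-10). PARP14 was 0.47 ± 0.13 higher (edgeR adjusted p = 0.0086). TNKS (0.37 ± 0.11, edgeR adjusted p = 0.0212) and TNKS2 (0.31 ± 0.10, edgeR adjusted p = 0.0304) were called too, but lost the call in 5 and 11 of the 14 fits that leave out 1 library. Without the library that stood apart TNKS2 was at 0.23 (edgeR adjusted p = 0.0818). PARP2 held 471 to 9805 CPM, 1.96 to 2.39 times the counts of RPPH1, the abundant RNase P RNA encoded beside it on the opposite strand, and its values are not read as PARP2 mRNA. Of 3 NAD glycohydrolases tested, BST1 alone was DE, or 33.3% against 30.9% of all genes. BST1 was higher (1.04 ± 0.27, edgeR adjusted p = 0.00636). SARM1 (0.40 ± 0.15, edgeR adjusted p = 0.0557) and CD38, in the other direction (-1.28 ± 0.51, edgeR adjusted p = 0.0825), did not pass. Without the library that stood apart CD38 was at -0.91.

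Of 8 tested genes for tryptophan uptake and kynurenine sensing, 2 were DE, or 25% against 30.9% of all genes. CYP1B1, a cytochrome P450 under the aryl hydrocarbon receptor that kynurenine can activate, was at 60.1 to 85.9 CPM in normoxia and 207 to 329 CPM in hyperoxia (1.95 ± 0.10, edgeR adjusted p = 3.02e-10). SLC7A5, the large neutral amino acid transporter that carries tryptophan and kynurenine, was slightly lower (log2 fold change -0.20 ± 0.06, edgeR adjusted p = 0.0204), a call lost without hyperoxia with vehicle replicate 1. The receptor AHR itself was at 58.5 to 101 CPM and its change of -0.12 ± 0.11 did not pass (edgeR adjusted p = 0.457). CYP1A1 (2.14 ± 0.89, edgeR adjusted p = 0.0808, at most 26 counts in a library) and AHRR (0.57 ± 0.23, edgeR adjusted p = 0.0743), of the same 8 genes, did not pass either. Activity of the receptor was not tested. By the naming rule 12 of the 14 DE genes of the list were to be named, and AOX1 and TNKS2 were added after their values were seen. AFMID, KYAT3, CD38, SARM1, CYP1A1 and AHRR, which did not pass in this comparison, were also named after their values were seen.

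**Figure D4:**
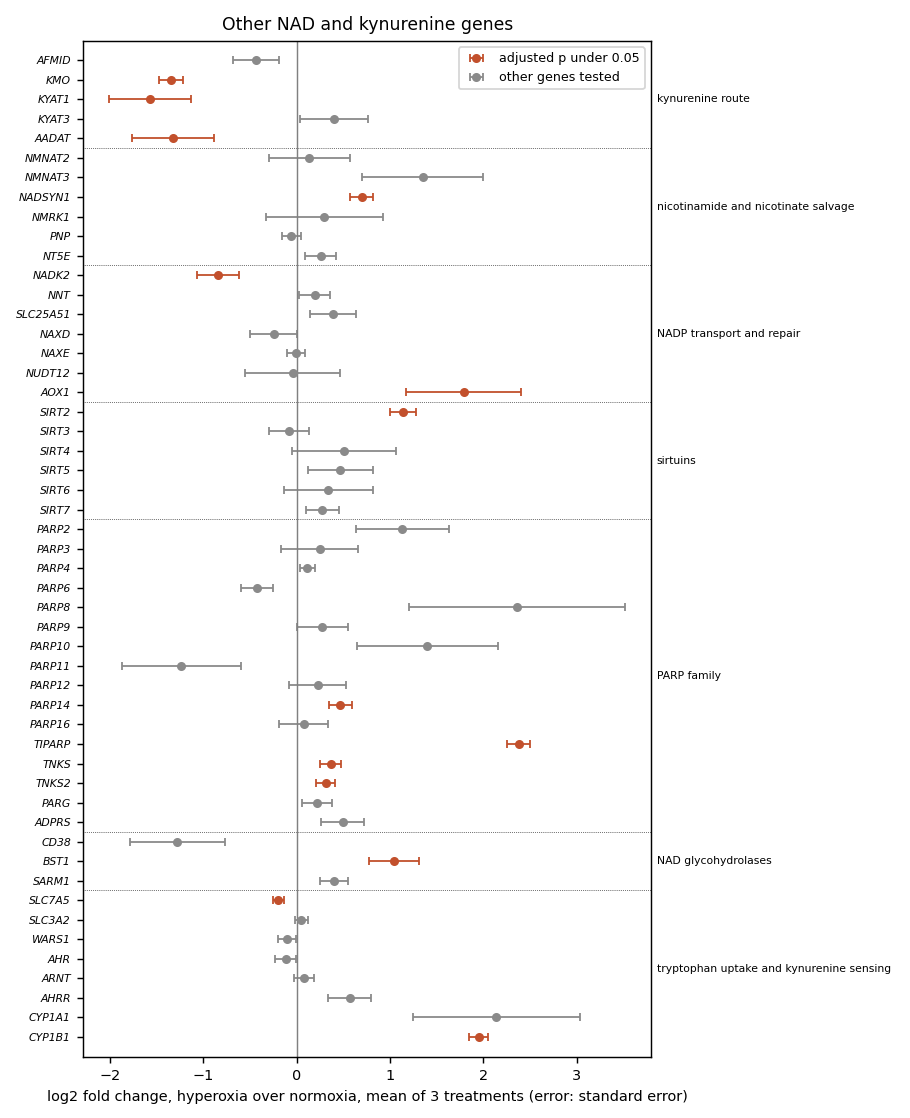
Log2 fold change of hyperoxia over normoxia (mean of 3 treatments, edgeR, with standard errors) for the 51 other NAD and kynurenine genes tested, by group. The 14 DE genes are in red: TIPARP (2.38) and CYP1B1 (1.95) lie farthest to the right, KYAT1 (-1.57) and KMO (-1.35) farthest to the left among them.

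With ATRA the same 51 genes gave few calls. In hyperoxia 1 of 51 was DE, against 0.945% of all genes tested. SLC7A5 stood at 1727 to 1818 CPM with vehicle and 2629 to 2785 CPM with ATRA (0.60 ± 0.10, edgeR adjusted p = 0.00728), and at 2006 to 2134 CPM without vehicle. Without either of the vehicle libraries in hyperoxia it was no longer called. In normoxia 0 of 51 were DE by edgeR, against 0.541% of all genes. At an unadjusted p under 0.05, 3 of 51 passed (NAXE, PARP9 and PARP14), against 5.16% of all genes. CD38, an NAD glycohydrolase and a retinoic acid target, was at 20.5 to 23.8 CPM with vehicle and 48.9 to 61.0 CPM with ATRA in normoxia, and at 8.47 to 10.9 CPM and 17.5 to 46.7 CPM in hyperoxia. Its groups did not overlap at either exposure, yet its log2 fold changes of 1.35 ± 0.84 and 1.58 ± 0.88 did not pass (edgeR adjusted p = 1.00 and 0.77). CD38 was at 0 in the library that stood apart, which is in none of these groups. Fitted on the 10 vehicle and ATRA libraries alone, the normoxia change was 1.34 and DE (edgeR adjusted p = 0.0295). So was the hyperoxia change of 1.60 (edgeR adjusted p = 0.0103). That fit called 1.36% and 2.37% of all genes. Leaving out the library that stood apart gave 1.34 and 1.59, and leaving out hyperoxia without vehicle replicate 2 instead gave 1.34 and 1.58. CD38 was named after these values were seen.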

How the data were processed

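RNA-seq counts of 14 of 15 libraries were used. Per the labels, stranded libraries were made with the NEXTFLEX Rapid Directional kit. Reads were trimmed (Trimmomatic 0.38), placed on hg38 (HISAT2) and assigned to genes (HTSeq) by the authors, who deposited raw counts per gene symbol. The annotation release and the strand and overlap settings are not given in the sources used here. Rows that name no gene held 75.2% to 78.4% of reads and were left out. The other library has conflicting labels and entered no comparison. The members and lists were chosen with earlier results of these data known.

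The counts were tested in R 4.3.3 using edgeR 4.0.16, with filterByExpr (minimum count 10, minimum total count 15), TMM normalisation, and a quasi-likelihood fit of 14 libraries in 6 groups, with Benjamini-Hochberg adjustment over 15339 genes. CPM values use TMM library sizes. Log2 CPM for correlations used a prior count of 2. The procedure was tested on simulated data. Sizes ± are standard errors and intervals are 95% intervals. Libraries of 1 group differed by more than sampling noise in every pair (chi-square per degree of freedom 4.12 to 32.1).

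Genes named are the 9 members, their overlapping genes, the 5 genes most correlated with NAMPT and with KYNU, list genes DE by oxygen or ATRA (at most 12 per comparison, by smallest p) and list genes with at most 3 counts in every library. WARS1 and ADPRS were found under older symbols. Positions and promoters came from RefSeq GRCh38.p14, which gave promoter windows for 7 of the 9 genes, and transcript lengths and strands from GENCODE 44. Alternatives were DESeq2 1.42.0, RLE size factors, no filter, the compared groups alone, the 10 vehicle and ATRA libraries, a library set block and leaving out each library. Plots were drawn with matplotlib in Python.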

Additional observations from a re-analysis of the deposited data

How the results depend on the processing

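Of 540 tested single-gene values under an alternative, 522 kept their direction and their side of the threshold. The 200 values of ATRA against vehicle have no test, and 197 kept their direction. NAMPT, KYNU, NNMT and PARP1 kept direction and call in the oxygen comparison over 3 treatments under all 19 alternatives that could be run, and in the ATRA setting under all 20. In the oxygen comparison without vehicle, where 1 member was DE, DESeq2 and no filter each gave 2 (19.4% and 11.0% of all genes), the 4 compared libraries alone gave 0 (0.614%), and leaving out 1 library gave 1 to 4 (5.9% to 43.9%). Leaving out 1 library gave 0 to 2 members for vehicle against no vehicle and 0 to 1 for the difference of the oxygen effects, each against 0. The list genes DE by oxygen numbered 9 to 22 when 1 library was left out, against 14: 22 without hyperoxia without vehicle replicate 2 (48.2% of all genes), and 9 without hyperoxia with vehicle replicate 1 (22.1%). For ATRA in hyperoxia, no filter gave 3 list genes (0.963% of all genes), the compared groups alone 3 (2.08%), the 10 vehicle and ATRA libraries 2 (2.37%), and leaving out 1 library 0 to 2, against 1. For ATRA in normoxia they gave 1, 2, 1 and 0 to 1, against 0. For most of these the cause was not tested, although the compared groups alone hold fewer samples.

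Direction reversed in 7 of the 540 tested values, all when 1 library was left out, and in 3 of the 200 values with no test. These values cover chosen pairs of gene and comparison, so other reversals are not in the count. SIRT1 without vehicle (0.35, and -0.085 without the library that stood apart) is one such. SIRT1 in the oxygen comparison over 3 treatments ranged from -0.085 to 0.13 over the alternatives, NADK without vehicle from -0.39 to 0.97, and KYNU for vehicle against no vehicle from -0.032 to 0.15; none of these reversed values was DE. The untested ones were SIRT1 for ATRA against vehicle in normoxia (0.01), which ranged from -0.23 to 0.29 and was below 0 with the library set block and without normoxia with ATRA replicate 2 or normoxia with vehicle replicate 2. With the library set block, which takes the libraries in 3 runs by their numbers, the 4 oxygen calls over 3 treatments were unchanged. Libraries of 1 set and different groups had a median correlation of deviations of 0.02 (other sets -0.01). No paired analysis was possible because the labels give the libraries no shared replicate numbers. Depth limits QPRT (0 to 16 counts) most.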

Other observations

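The library that entered no comparison has a title naming hyperoxia and a treatment label naming another procedure. Its values for the members, with the range of the 7 hyperoxia and 7 normoxia libraries on the same scale, were as follows. NAMPT was at 242 CPM (hyperoxia 96.9 to 249, normoxia 66.4 to 181) and KYNU at 487 CPM (188 to 498 and 98.0 to 290). NNMT was at 14.7 CPM (11.6 to 27.2 and 47.4 to 79.1) and PARP1 at 143 CPM (101 to 162 and 174 to 241), so that these 4 genes lay inside the hyperoxia range. NNMT, PARP1, NAMPT and KYNU lay outside the normoxia range. NMNAT1, at 15.4 CPM, lay above all 14 other libraries (highest 13.1 CPM). SIRT1 was at 29.4 CPM, NADK at 37.8 CPM, NAPRT at 8.38 CPM and QPRT at 1.36 CPM, all within the hyperoxia range. SIRT1, NAPRT and QPRT lay within the normoxia range too (25.3 to 42.4, 4.91 to 8.86 and 0.632 to 3.17 CPM). NADK lay above it (highest 33.5 CPM).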
